A study of Mus musculus with 3 samples.

Results

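The genes described here carry the T-cell receptor signal from the cell surface to its first enzymes: the receptor chains, the kinases and adaptors that act on them, costimulators, negative regulators and downstream enzymes. A list of 46 symbols was matched to the gene identifiers of the deposited tables, and all 46 were found among 50600 genes. The list holds 8 receptor chains (the coreceptor Cd4 included), 5 kinases, 8 adaptors, 5 costimulators and surface receptors, 11 negative regulators and 9 downstream enzymes.

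The cells were mouse T helper 1 (Th1) cells, a CD4 lineage that makes interferon gamma, sequenced as 3 RNA libraries. They are primary cells of strain C57BL/6NJ, with a linked differentiation protocol named for CD4 T cells, no genotype change or treatment named, sex not collected and age unknown. Per the file headers they were taken at 48 h, in a course over time of Th1 and Th2 cells whose other arms were not analysed here. The labels call the assay total RNA-seq, link a library protocol named for poly(A)+ RNA, and give the 3 biological replicates 1 donor identifier, so the spread between libraries may be technical. With 1 group there is no contrast of conditions, and the results are levels within a library and differences between libraries.

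The T-cell receptor pairs an alpha and a beta chain, which bind antigen, with the CD3 and zeta chains, whose cytoplasmic tyrosine motifs carry the signal. Lck, held at the coreceptor, phosphorylates these motifs; Zap70 docks there and phosphorylates the adaptors Lat and Lcp2 (SLP-76), on which phospholipase C gamma 1, exchange factors for Ras and Rac, and further adaptors assemble. Diacylglycerol and calcium then drive the Ras, NF-kappaB and NFAT arms, while phosphatases, Csk, ubiquitin ligases and diacylglycerol kinases hold the signal back.

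Depth set what could be read. The libraries held 4742025, 50627 and 3543816 fragment counts in replicates 1, 2 and 3, so 1 count was worth 0.211, 19.8 and 0.282 CPM (counts scaled to a library total of 1000000). In replicate 2, 4 members had no count, 35 had 1 to 9 and 7 had at least 10; its values are given throughout, but mostly within wide counting error. Intervals are exact 95% Clopper-Pearson intervals and cover counting error only. Fragments were counted on 1 strand. Genes that share exonic positions with a gene of the other strand were 16.2% of all genes. They took 52.7%, 57.8% and 72.2% of the counts in replicates 1, 2 and 3. The headers call the run stranded, but the kit is not named, so whether fragments were assigned to the strand they came from was not tested, and levels below are as deposited. All 7 T-cell markers outside the list reached 1 TPM (counts per gene length, scaled in the same way) in every library, with summed levels of 283 to 590 TPM. Of other cells' defining markers, Cd8a, Ms4a1, Blnk, Pax5, Ncr1, Klrb1c, Klrd1, Fcer1g, Lyz2, Itgam, Adgre1, Cd14 and Spi1 had no count. The B-cell list of 7 genes summed to 16, 0 and 25 counts and the natural killer list of 5 to 1, 0 and 0. The exceptions were Cd8b1 with 21, 1 and 13 counts, the B-cell gene Cd79a with 10, 0 and 22, and Csf1r with 1096, 10 and 1606, of whose exonic length 17.8% lies under exons of Hmgxb3. Of the gamma-delta list only Trdc was found by symbol, with 3, 0 and 3 counts. In bulk RNA, fewer cells of a type and less RNA per cell cannot be told apart.

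Nearly the whole proximal pathway was measured. In replicates 1 and 3, 45 of the 46 members reached 1 TPM, against 24.2% of all genes in the table, and 41 did so in every library, against 14.8%. The exceptions were Txk, at 0.895, 3.77 and 0.417 TPM in replicates 1, 2 and 3, and Tec, Nck2, Ubash3b and Pag1, which had no count in replicate 2. Together the members took 0.635% of the counts of replicate 1 (interval 0.627 to 0.642). The share was 0.553% in replicate 2 (0.490 to 0.622) and 0.376% in replicate 3 (0.369 to 0.382). In replicate 1, 41 of 46 stood above the median of all genes with a count and 17 above their 90th percentile; in replicate 3 these numbers were 37 and 10.

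Receptor chains, then costimulators and surface receptors, then kinases held the highest medians in every library. The median log2(TPM + 1) of the receptor chains was 7.46, 6.90 and 6.64 in replicates 1, 2 and 3. It was 6.37 ± 0.58 (SD, n = 3) for costimulators and surface receptors, 5.79 ± 0.75 for kinases, 4.52 ± 0.46 for negative regulators, 4.28 ± 0.62 for adaptors and 4.05 ± 0.64 for downstream enzymes. Over all members it was 5.68, 5.25 and 4.30 in replicates 1, 2 and 3, beside 2.83, 0.00 and 2.24 over all genes with a count. The medians of negative regulators, adaptors and downstream enzymes differed by less than the largest of their SDs. These SDs also hold the fall over all members from replicate 1 to replicate 3. Compared within each library, negative regulators stood above downstream enzymes, at 4.88, 4.69 and 4.00 against 4.57, 4.25 and 3.33. Adaptors, at 4.93, 4.24 and 3.69, stood above negative regulators in replicate 1 only. Levels within a role spread widely: in TPM the kinases ran from 0.895 to 233 in replicate 1 and the negative regulators from 7.02 to 326. The order of members was kept between libraries, with a Spearman's rho of 0.99 for replicates 1 and 3 and 0.92 for each pair with replicate 2, over 46 genes that share their lengths.

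**Figure D1:**
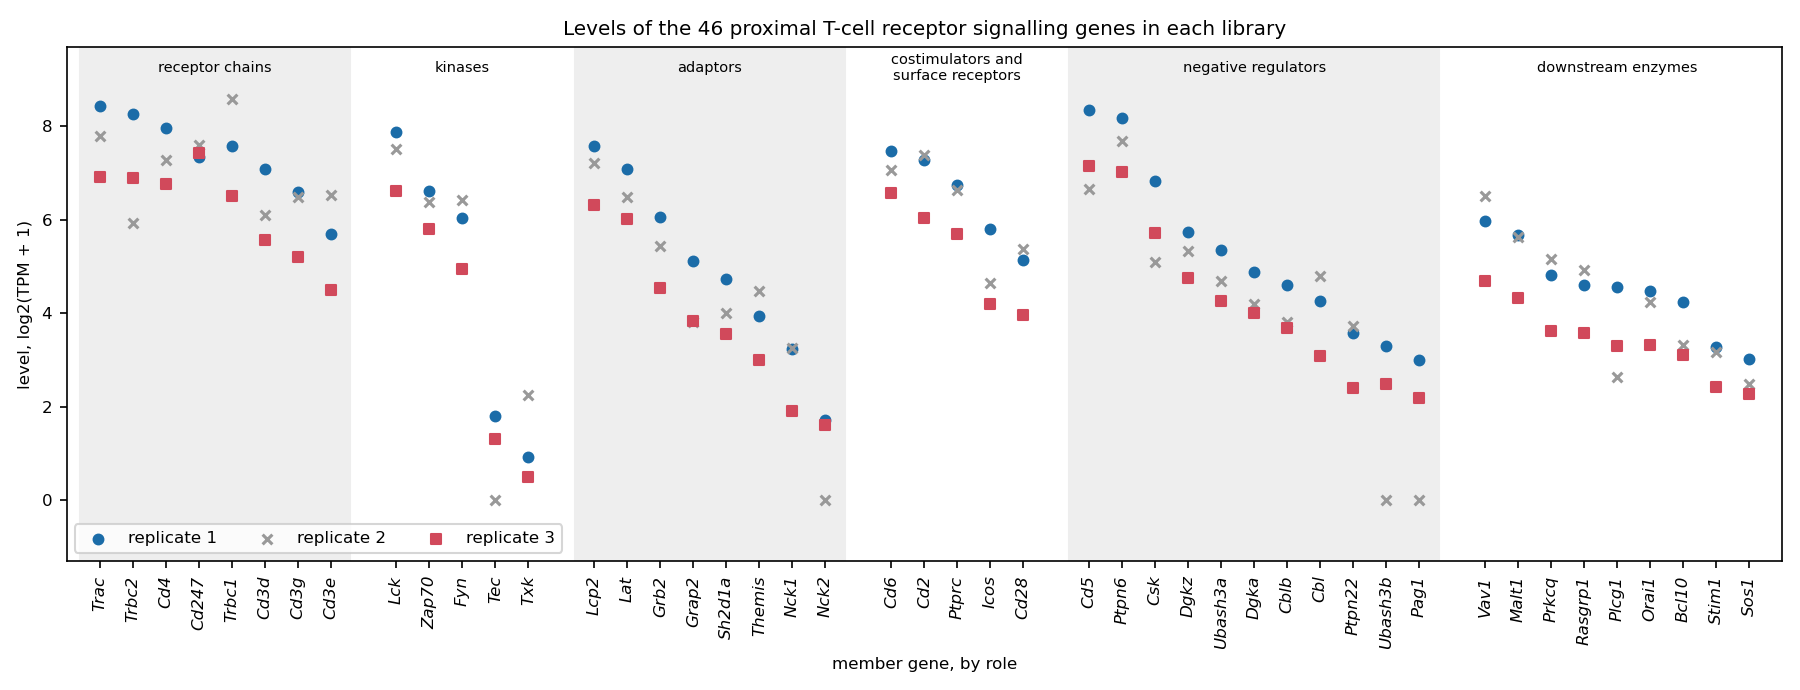
Level of each of the 46 members as log2(TPM + 1) on the y axis, members grouped by role on the x axis and ordered within a role by their mean in replicates 1 and 3; each point is 1 library. Replicate 3 (squares) lies below replicate 1 (circles) for every member but Cd247, and 4 members sit at 0 in the shallow replicate 2 (crosses).

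Among the receptor chains, Trac and Trbc2 led in replicate 1, and Cd247 in replicate 3. Trac, the constant region of the alpha chain (chromosome 14), stood at 348, 221 and 119 TPM in replicates 1, 2 and 3 (229 ± 114, n = 3), a level above that of 97.1% of the genes with a count in replicate 1 and 93.0% in replicate 3. Trbc1 stood at 190, 386 and 90.8 TPM and Trbc2 at 309, 59.7 and 117 TPM; these beta-chain constant regions lie beside each other on chromosome 6. Replicate 2 held 7 and 1 counts of them, so the order there, opposite to that in replicates 1 and 3, rests on very few fragments.

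The beta constant regions are near copies, which bears on how far their counts can be told apart. Their coding sequences (GENCODE M21 transcripts, GRCm38, plus strand) are shown 5′ to 3′ after the first exon, the stretch in which most differences lie; capitals mark the bases that differ between them.
Trbc1: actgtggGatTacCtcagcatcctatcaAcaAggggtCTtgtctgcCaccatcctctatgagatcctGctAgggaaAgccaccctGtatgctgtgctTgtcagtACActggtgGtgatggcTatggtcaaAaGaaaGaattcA
Trbc2: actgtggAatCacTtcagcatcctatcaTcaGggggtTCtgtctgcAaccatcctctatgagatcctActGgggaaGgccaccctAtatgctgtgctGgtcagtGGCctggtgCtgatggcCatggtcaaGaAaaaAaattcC
Trbc1 codes from chr6:41538218-41539662 and Trbc2 from chr6:41546730-41548178. Of 518 aligned coding bases 23 differ (95.6% identity), but only 1 of the 375 bases of the first exon does, at position 260 counted from the first coding base, which is not shown; the other 22 lie in the last 143 bases. Of all stretches of 50 bases in their transcripts, 283 of 698 in Trbc1 (40.5%) and 283 of 643 in Trbc2 occur in the other gene. The same count was 7.54% for Grb2 and 6.77% for Nck2, both shared with annotated Gm genes, under 5% for each of the other 42 members, and 0 for 24 of them. How the deposited counts treated fragments that match both beta regions is not given in the sources used here, so the levels of Trbc1 and Trbc2 are uncertain.

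The CD3 chains, which carry the signal into the cell, stood lower than the antigen-binding chains in replicates 1 and 3. Cd3d was at 136, 68.2 and 46.4 TPM, Cd3g at 95.6, 88.4 and 35.8 TPM and Cd3e at 50.6, 91.1 and 21.8 TPM in replicates 1, 2 and 3. Cd3d exceeded Cd3g by a log2 TPM ratio of 0.50 in replicate 1 (0.34 to 0.67) and 0.37 in replicate 3 (0.08 to 0.67), beyond counting error in each. In replicate 2, with 3 and 7 counts, the ratio was -0.37 (-2.96 to 1.76). Cd4, the coreceptor that brings Lck to the receptor, stood at 251, 154 and 108 TPM, on 2166, 15 and 858 counts.

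Cd247, the zeta chain with the largest number of signalling motifs of the complex, did not follow the others. It stood at 162, 194 and 172 TPM in replicates 1, 2 and 3 (176 ± 16.1, n = 3), on 1850, 25 and 1809 counts. In replicate 1 it was the fifth of the 8 receptor chains and in replicate 3 the highest. The log2 TPM ratio of Cd3e to Cd247 was accordingly -1.68 in replicate 1 (-1.83 to -1.53) and -2.98 in replicate 3 (-3.22 to -2.76), intervals that do not overlap. Cd247 is also the member with the largest share of its exonic length, 56.4% (3007 bases), under exons of an opposite-strand gene, Pou2f1.

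Lck was the highest kinase. This Src-family kinase, which starts the signal at the CD3 and zeta chains, stood at 233, 183 and 97.5 TPM in replicates 1, 2 and 3 (171 ± 68.7, n = 3). Zap70, which binds the phosphorylated chains, stood at 97.4, 82.8 and 55.3 TPM and Fyn, the other Src-family kinase of T cells, at 65.0, 85.2 and 29.8 TPM. The Tec-family kinases Tec and Txk were, with the adaptor Nck2, the 3 lowest members in replicates 1 and 3: Tec had 20, 0 and 11 counts (2.49, 0 and 1.49 TPM) and Txk 21, 1 and 9. Lck exceeded Fyn 3.59-fold in replicate 1, 2.15-fold in replicate 2 and 3.28-fold in replicate 3.

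Adaptors formed a graded series of levels. Lcp2, the scaffold also called SLP-76, stood at 190, 148 and 79.1 TPM and Lat, the membrane scaffold, at 134, 89.5 and 64.2 TPM in replicates 1, 2 and 3. Grb2, which brings Sos1 to Lat, stood at 65.3, 42.5 and 22.3 TPM, and Grap2 (Gads), which joins Lat to Lcp2, at 34.0, 13.1 and 13.2 TPM. Sh2d1a (SAP), the adaptor of SLAM-family receptors, stood at 25.6, 15.0 and 10.7 TPM and Themis, a regulator of signal strength in developing T cells, at 14.4, 21.2 and 6.95 TPM. Nck1 and Nck2, which link the receptor to the actin skeleton, were lowest, at 8.38, 8.62 and 2.75 TPM and at 2.31, 0 and 2.05 TPM. Of the exonic length of Sh2d1a, 26.6% lies under exons of Tenm1, a gene with 3, 1 and 3 counts.

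Of the costimulators and surface receptors, Cd6 and Cd2 were highest. Cd6, a scavenger-receptor family protein, stood at 178, 133 and 94.0 TPM, and Cd2, an adhesion receptor, at 155, 166 and 64.4 TPM in replicates 1, 2 and 3. Ptprc (CD45), the phosphatase that keeps Lck ready, had the most counts of any member, 4180, 44 and 1846, over 18313 bases of exon, which gave 107, 99.2 and 51.1 TPM. Cd28, the main costimulator of naive T cells, stood at 34.3, 40.5 and 14.5 TPM and its inducible relative Icos at 55.0, 24.1 and 17.5 TPM. Icos exceeded Cd28 in replicate 1 (log2 ratio of Cd28 to Icos -0.68, -0.88 to -0.48), but in replicate 3 the interval included 0 (-0.27, -0.61 to 0.08).

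The negative regulators were led by Cd5 and Ptpn6, both among the 4 highest members by their mean in replicates 1 and 3. Cd5, an inhibitory surface receptor, stood at 326, 99.8 and 142 TPM on 1446, 5 and 580 counts. Ptpn6 (SHP-1), a phosphatase recruited by inhibitory receptors, stood at 290, 206 and 129 TPM, whereas Ptpn22, which acts on Lck and Zap70 in complex with Csk, was at 11.0, 12.2 and 4.27 TPM. The log2 ratio of Ptpn6 to Ptpn22 was 4.72, 4.08 and 4.92, and its interval excluded 0 in each library. Csk, the kinase that closes Lck, stood at 114, 33.1 and 51.6 TPM, and its membrane anchor Pag1 at 7.02, 0 and 3.55 TPM. With 3 and 0 counts in replicate 2, Csk exceeded Pag1 16.2-fold in replicate 1 and 14.5-fold in replicate 3.

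The remaining negative regulators stood at intermediate or low levels. Dgkz stood above Dgka, both of which remove diacylglycerol, at 52.1, 39.5 and 26.2 TPM against 28.3, 17.3 and 15.0 TPM in replicates 1, 2 and 3. Ubash3a, a T-cell member of the STS family, was at 40.0, 24.8 and 18.3 TPM and its broadly expressed relative Ubash3b at 8.93, 0 and 4.57 TPM. The ubiquitin ligase Cblb was at 23.4, 13.1 and 11.8 TPM and Cbl at 18.1, 26.8 and 7.44 TPM, an order that held beyond counting error in replicates 1 and 3 and was opposite, on 2 and 8 counts, in replicate 2.

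Downstream enzymes were lower and closer together. Vav1, an exchange factor for Rac, stood at 62.3, 89.6 and 24.9 TPM and Malt1, the protease of the NF-kappaB arm, at 49.8, 48.8 and 19.0 TPM in replicates 1, 2 and 3. Bcl10, the partner of Malt1, was at 17.9, 9.05 and 7.67 TPM. Prkcq (PKC theta), which diacylglycerol activates, stood at 27.0, 35.0 and 11.4 TPM, and Plcg1, which makes diacylglycerol and the calcium-releasing messenger, at 22.7, 5.25 and 8.91 TPM, with 1 count in replicate 2. Of the exchange factors for Ras, Rasgrp1 stood at 23.3, 29.5 and 11.0 TPM and Sos1 at 7.12, 4.63 and 3.87 TPM. The calcium channel subunit Orai1 was at 21.4, 18.0 and 9.06 TPM and its sensor Stim1 at 8.69, 7.96 and 4.35 TPM.

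Members of like role were compared as 18 pairs fixed by role. In replicates 1 and 3 the interval excluded 0, with the same sign, for 16 of 18 pairs; the exceptions were Cd28 to Icos and Nck2 to Nck1, whose interval included 0 in replicate 3. The intervals of replicates 1 and 3 overlapped in 16 of 18, all but Cd3e to Cd247 and Lck to Zap70 (1.26 and 0.82). In replicate 2 the interval included 0 in 16 pairs, all but Ptpn6 to Ptpn22 and Csk to Pag1. Ubash3a to Ubash3b gave 2.16 and 2.00 in replicates 1 and 3. Over the libraries, the mean log2 ratio was 1.55 ± 0.39 for Lck to Fyn, 1.96 ± 0.62 for Rasgrp1 to Sos1, 1.13 ± 0.50 for Grb2 to Grap2, 1.18 ± 0.12 for Orai1 to Stim1, -0.96 ± 0.20 for Dgka to Dgkz, -0.51 ± 0.21 for Lat to Lcp2 and -1.74 ± 0.61 for Bcl10 to Malt1 (SD, n = 3). Each had 1 sign in 3 of 3 libraries, and the exact two-sided sign-flip test gave p = 0.25, the smallest that 3 libraries allow (adjusted p = 0.45 over the 18 pairs).

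**Figure D2:**
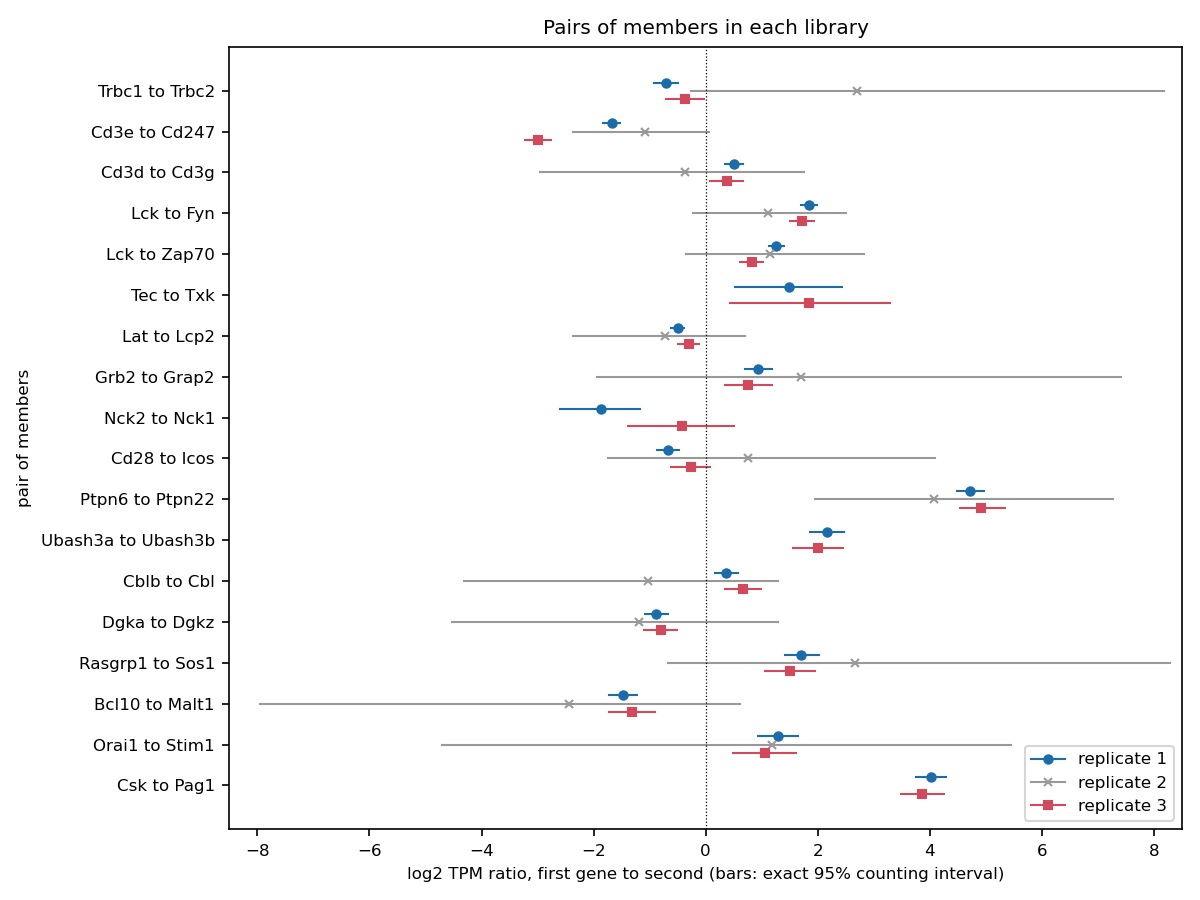
Log2 TPM ratio of the first gene to the second on the x axis for 18 pairs of members on the y axis, with 1 point and its exact 95% counting interval per library; libraries with no count of either gene have no point. Replicates 1 and 3 lie close together for most pairs, with Cd3e to Cd247 the widest apart among pairs whose intervals do not overlap.

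Replicate 3 was compared with replicate 1, the other deep library, member by member. On library totals, 44 of 46 members were lower in replicate 3 and the counting interval of 42 lay below 0; 25.3% of the 10019 genes with at least 50 counts in the pair were above 0. As the log2 ratio of CPM in replicate 3 to that in replicate 1, the median was -0.91 for the 36 members that share no exonic position with an opposite-strand gene, beside -0.84 (quartiles -1.04 and -0.64) for all 5857 such genes with at least 50 counts. Of these 36 members, 21 lay between those quartiles. None of the 33 members with at least 50 counts was above 0, against 5.17% of those genes; Nck2, above 0, had fewer counts. Values are therefore also given relative to that median of -0.84.

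Cd247 was the only member whose counting interval lay above 0. Its ratio was 0.39 (0.29 to 0.48), which is 1.23 above the median of genes without overlap and higher than the ratio of 96.5% of them. Genes with more than 50% of their exonic length under opposite-strand exons, of which Cd247 is the only member, had a median of 0.77 (quartiles 0.61 and 0.92) over 471 genes. Pou2f1, its opposite-strand partner, had 467, 15 and 613 counts in replicates 1, 2 and 3 and a ratio of 0.81. In replicate 2, Cd247 gave a log2 CPM ratio to replicate 1 of 0.34 (-0.29 to 0.91). The part of the overlap in the level of Cd247 was not tested. The other member with a positive ratio, Nck2 (0.13), had an interval of -0.85 to 1.10 on 22 and 18 counts.

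**Figure D3:**
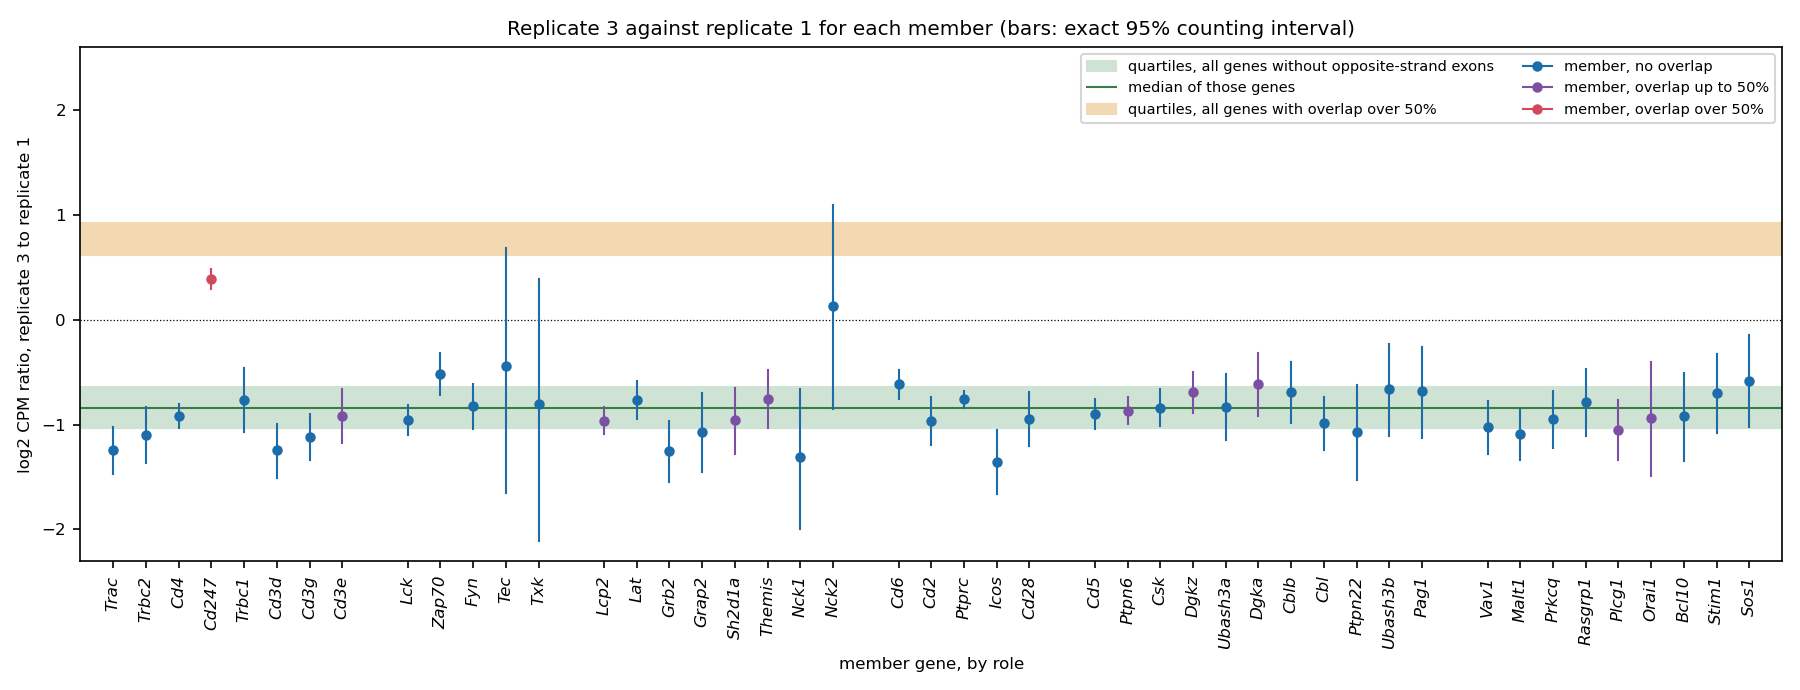
Log2 CPM ratio of replicate 3 to replicate 1 on the y axis for each member on the x axis, by role, with exact 95% counting intervals; the bands are the quartiles over all genes without opposite-strand exons (lower) and with an overlap over 50% (upper). Most members sit in or near the lower band, Cd247 (0.39) lies between the bands, and Tec, Txk and Nck2 have wide intervals.

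The other 9 members with an overlap showed no such rise, but their partner genes did. Of the 9, 8 share 0.31% to 6.96% of their exonic length and Sh2d1a shares 26.6%; their ratios ran from -1.05 to -0.62 with a median of -0.92, and none was above 0, whereas 48.6% were among 3691 genes whose overlap did not exceed 50%. All 11 opposite-strand partners of the 10 overlapped members had a ratio above 0, from 0.42 for Tenm1, which had 3 counts in each of the libraries compared, to 1.17 for 4930469K13Rik, the partner of Lcp2. The partners are overlapped genes too. Among all genes with at least 50 counts, 48.6% were above 0 where the overlap was up to 50%, and 93.0% where it was over 50%. Partners had more counts per kb of exon than the member in 6 of 11 pairs in replicate 1 and 9 of 11 in replicate 3.

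The partners of Cd3e and Ptpn6 carried the most counts. Gm48719 (chr9:44999429-45002985, plus strand, mm10) lies within the span of Cd3e and shares 135 bases of exon with it. It had 2287, 21 and 2753 counts against 442, 9 and 175 for Cd3e, which per kb is 58.5-fold more in replicate 1 and 178-fold more in replicate 3. Gm20531 (chr6:124732168-124738040, plus strand) lies within Ptpn6 and had 3890, 23 and 4779 counts against 1741, 14 and 714, or 4.56-fold and 13.7-fold more per kb in replicates 1 and 3. Within the span of Plcg1, Gm27206 had 383, 7 and 492 counts against 382, 1 and 138. Where exons are shared, reads of these genes and of the members were told apart only by the strand setting of the deposited counts. That setting cannot tell reads of these genes from reads of the members' other strand.

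**Figure D4:**
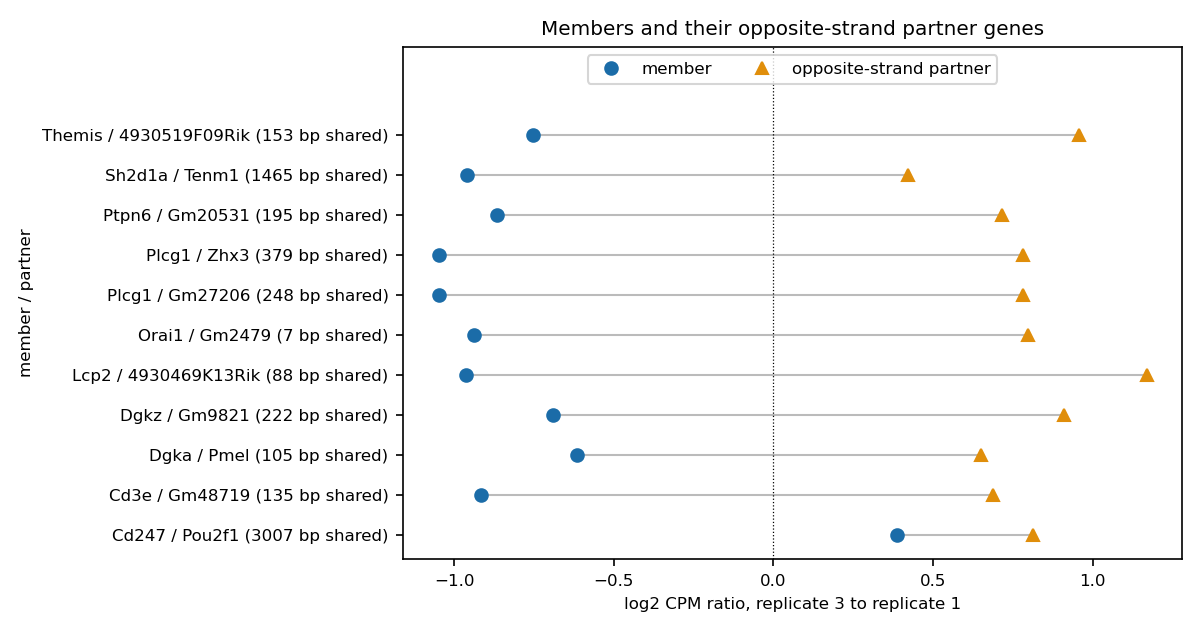
Log2 CPM ratio of replicate 3 to replicate 1 on the x axis for the 10 members that share exonic bases with an opposite-strand gene (circles) and for their 11 partners (triangles), 1 row per pair on the y axis. All partners lie above 0, and all members but Cd247 lie below 0.

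Each kept gene was tested for variation between the libraries beyond counting error (chi-square), with Benjamini-Hochberg adjustment. With TMM scaling, which corrects totals by a trimmed mean over kept genes, 29 of the 41 members kept varied at an adjusted p under 0.05, or 70.7%, against 63.2% of the 7406 genes tested. Among the 31 kept members without overlap 23 varied, or 74.2%, against 54.4% of the 4182 such genes; these shares were not tested against each other. The 5 members not kept were Tec, Txk, Nck2, Ubash3b and Pag1. Of the 29, 1 was higher in replicate 3 than in replicate 1 (Cd247) and 28 were lower. Over all called genes 42.5% were higher, and over called genes without overlap 7.99%, beside a median log2 ratio of -0.39 for genes without overlap on this scaling. The split depends on the scaling: on totals estimated from genes without opposite-strand exons, 8 of the 41 varied (19.5%), against 39.0% of all genes. Among the 31 members without overlap 7 varied (22.6%), against 18.4% of such genes. Of the 8, 3 were higher and 5 lower (37.5% higher), against 88.7% higher among all called genes. Of the 7 without overlap 28.6% were higher, against 65.1% of such called genes. Under TMM scaling no member was called without replicate 1 (0 of 41) or without replicate 3 (0 of 42). Over all genes, 677 of 7147 were called without replicate 1 and 271 of 7427 without replicate 3. Each of these settings sets 1 deep library against replicate 2, in which 4 members had no count and 35 had 1 to 9. The test could therefore detect little there. Without replicate 2, 17 of 46 members passed, overlapped members such as Cd247 and Ptpn6 among them, against 37.9% of all genes. Among genes without overlap alone, 21.4% passed.

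The 8 members that varied under this second scaling came from 5 of the 6 roles, with none among the downstream enzymes. Relative to the median of genes without overlap, Icos was lower in replicate 3 by a log2 value of -0.51 (chi-square, adjusted p = 0.0053), Grb2 by -0.41 (adjusted p = 0.043), Cd3d by -0.40 (adjusted p = 0.012) and Trac by -0.40 (adjusted p = 0.0037). Zap70 was higher by 0.33 (adjusted p = 0.0090) and Cd6 by 0.23 (adjusted p = 0.0072), besides Cd247. These adjusted p-values are of the chi-square test over 3 libraries, replicate 2 included, and not of the difference between replicates 1 and 3. Cd5, at -0.053 between the deep libraries and with 5 counts in replicate 2, was called over 3 libraries (adjusted p = 0.039) and not between replicates 1 and 3 alone (adjusted p = 0.50). In that comparison of replicates 1 and 3, chosen after the data were seen, 8 of 46 members passed (17.4%), against 34.2% of all genes. Of the 8, 7 were shared with the calls over 3 libraries, with Cd3g (-0.27, chi-square, adjusted p = 0.027) in place of Cd5. Among the 36 members without overlap 7 passed (19.4%), against 15.5% of such genes. Of the 46 members tested, 3 were called higher in replicate 3 (6.52%), against 30.8% of all genes, and 5 lower (10.9%), against 3.35%. Among the 36 members without overlap, 2 were called higher (5.56%), against 10.8% of such genes, and 5 lower (13.9%), against 4.68%. These differences in share were not tested.

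Spread beyond counting error, as the biological coefficient of variation from edgeR, was 0.134 over the 41 members kept and 0.081 over the 31 of them without overlap. Over all 7406 genes it was 0.341, and over the 4182 without overlap 0.166. TMM factors were estimated anew from the genes of each set, so a shift between libraries shared by a set is largely left out of its value. The values are therefore not on a common scaling. They describe the 3 libraries and were not tested against each other.

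The rest of the pathway was read from a list of 37 further genes, adaptors, phosphatases, Ras proteins and calcium channel genes among them. All 37 reached 1 TPM in replicates 1 and 3 and 30 did so in every library, with a median log2(TPM + 1) of 4.50, 4.84 and 3.74 in replicates 1, 2 and 3. Sla2, an adaptor that dampens receptor signalling, was highest, at 553, 893 and 785 TPM, with 23.6% of the bases in its exons under those of Rab5if. The adaptor Trat1 stood at 119, 60.4 and 54.9 TPM, the phosphatase Ptpn7 at 71.9, 108 and 34.2 TPM, and the actin regulators Evl, Wipf1 and Was at 109, 66.2 and 61.2 TPM in replicate 1. Replicate 3 stood to replicate 1 at a median log2 CPM ratio of -0.77. On totals from genes without overlap, 4 of the 30 kept varied, against the 39.0% of all genes and 18.4% without overlap given above: Sla2, with a ratio of 0.80, the costimulatory receptor Cd27 with 0.29, which shares no exonic position with an opposite-strand gene, Was with -0.41 and Evl, 18.0% of whose exonic bases lie under Degs2, with -0.53, all 4 above the median of -0.84.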

How the data were processed

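RNA of 3 Th1 libraries was analysed from gene tables. The deposited values are raw counts of fragments per gene, made per the file headers with featureCounts 1.4.6-p4 over exons summed by gene identifier, both ends mapped, strand setting 1, on GENCODE M13; the labels name mm10. Which kit and aligner version were used is not given in the sources used here. Exon length, another deposited value, gave TPM; CPM used library totals. Identifiers gave symbols for 50376 of 50600 genes. Opposite-strand exonic overlap was computed with bedtools 2.31.1 from the deposited coordinates.

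Members, roles, pairs and lists were chosen with earlier results of these data known. All 46 members are named, with up to 8 further pathway genes by mean TPM and those that varied, up to 4 markers per list and those without counts, and overlap partners. Some genes under this rule are not reported here. Of the marker lists, T-cell, CD8, gamma-delta, B, natural killer and myeloid genes are reported; in the Th1 list, 4 of 5 were at 1 TPM or more throughout.

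The series has 1 group, so no quasi-likelihood test (edgeR) could be fitted. Each gene kept by filterByExpr was tested by chi-square, on 2 degrees of freedom, with totals scaled by TMM (edgeR 4.0.16), adjusted by Benjamini-Hochberg over all kept genes; expected counts in replicate 2 were small, where this test is rough. The script was tested on simulated data. DESeq2 1.42.0 gave alternative size factors. Ratios of 2 counts have exact Clopper-Pearson intervals. A count of 0 allows up to 3 counts, or 0.633, 59.3 and 0.847 CPM in replicates 1, 2 and 3. R 4.3.3 and Python 3.11.15 were used.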

Additional observations from a re-analysis of the deposited data

How the results depend on the processing

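The number of members at 1 TPM stayed within 1.5 times under every alternative floor, unit and left-out replicate. In replicate 2 the lowest member with a count, Txk, stood at 3.77 TPM on 1 count. A floor of 1 TPM or lower therefore asked no more of a member there than 1 count. The number that varied, 29 of 41, was 8 of 41 with totals from genes without opposite-strand exons and 8 of 46 with these totals and replicates 1 and 3 alone; leaving out a replicate gave 0 to 17. The cause of these changes was not tested. The 0 came from leaving out replicate 1 or replicate 3, which left 1 deep library beside the shallow replicate 2. Over all genes, 4681 calls became 2886 with those totals and 271 to 4167 on leaving out a replicate. In FPKM the role medians were 5.99 for receptor chains, 4.80 for kinases, 3.34 for adaptors, 5.37 for costimulators and surface receptors, 3.57 for negative regulators and 3.12 for downstream enzymes, a change of scale by construction. Median ratios of replicate 3 to replicate 1 for members without overlap, with up to 50% and over 50% were -0.45, -0.46 and 0.84 with TMM scaling, -0.35, -0.36 and 0.95 with DESeq2 size factors, and -0.061, -0.071 and 1.23 with totals from genes without overlap. On leaving out a replicate, mean log2 pair ratios ran from -0.54 to 1.16 for Trbc1 to Trbc2, -0.00067 to 0.44 for Cd3d to Cd3g, -0.47 to 0.24 for Cd28 to Icos and -0.33 to 0.52 for Cblb to Cbl; their sign changed with the library left out, and the other 14 pairs kept theirs. The biological coefficient of variation over all genes was 0.181 with DESeq2's median dispersion. No paired analysis was possible because there is 1 group. Replicate 2, with 50627 counts, limits every value that rests on it.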
